A study of Homo sapiens with 15 samples.

Results

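Mitochondrial ribosomal protein genes encode the protein subunits of the mitoribosome, and the members described here are the genes of both expression tables whose symbol is MRPL or MRPS followed by a number and at most 1 of the letters A, B and C. The rule found 75 of the 20468 RefSeq genes, of which 47 have an MRPL symbol and 28 an MRPS symbol. MRPS18A and MRPS30 lie in the large subunit in spite of their symbol, so 49 members were counted with the large subunit and 26 with the small subunit. MRPS36, counted with the small subunit by its symbol, is named KGD4 in RefSeq and is known as a subunit of the oxoglutarate dehydrogenase complex. MM.1S and RPMI8226 are established human lines derived from MM, and their cells were cultured for 48 h alone (MONO), in the upper transwell above HS5 bone marrow stromal cells (TSW) or in the lower chamber in direct contact with HS5 cells (CO). HS5 is an established human stromal line, and MM cells were sorted by flow cytometry as CD90- CD38+ cells. RNA-Seq libraries were made from 3 replicates of each condition in MM.1S and 2 in RPMI8226, 15 libraries in all. The sources used here do not say that the replicates were separate cultures, so the p-values measure the spread between libraries, which may be technical.

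Mitoribosomes translate the few messengers of the mitochondrial genome, all of which encode subunits of the respiratory chain and of ATP synthase. Their RNA is transcribed in the organelle, while every protein subunit is encoded in the nucleus, made in the cytosol and imported, so the supply of both has to be matched. Plasma cells and the MM cells derived from them fold and secrete large amounts of immunoglobulin, a process that draws on mitochondrial ATP.

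Expression is given as RPKM, which scales the tags of read pairs (PETs) on a gene by its length and by the depth of the library, and tests were made with limma on log2(RPKM + 1). Fold changes on this scale understate the change of genes with a low RPKM. A member is said to have risen or fallen where its Benjamini-Hochberg adjusted p was under 0.05, with the adjustment made over all genes tested in a comparison (10153 in MM.1S and 10319 in RPMI8226, each with a mean RPKM of at least 1). All 75 members passed that filter in both lines. Because each line has its own normalized table, no test crosses the lines. The libraries held between 9008909 and 19050586 PETs, and the fewest PETs on a member in any library were 30, on MRPS24.

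Several libraries stood apart from the others. Replicate 1 of MM.1S MONO had the lowest depth, and of the 9 MM.1S libraries it held the highest value for 56 of the 75 members, against 27.7% of all genes tested. Replicate 2 of MM.1S MONO and both RPMI8226 TSW libraries differed from the other 12 in the values of a pair of genes. The pseudogene RPS14P3 was at 84.2 RPKM in the first of these and at 94.8 and 93.6 in the TSW libraries, against 2.20 to 6.44 elsewhere. The mitochondrial tRNA gene trnN was at 1.44, 2.22 and 1.53 RPKM in the same libraries and between 82.3 and 587 in the others. Results are therefore given with and without these libraries where the design allows it, and for RPMI8226 TSW it does not, because they are the only libraries of that condition.

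The summed expression of the 75 members was lower in coculture than in monoculture in RPMI8226, and the conditions did not overlap. The members summed to 3686 and 3716 RPKM in the RPMI8226 MONO libraries, to 2606 and 2664 in TSW and to 2074 and 2098 in CO. Thus every TSW library lay below every MONO library and above every CO library, and the mean sum of TSW was 71.2% and that of CO 56.4% of the mean of MONO. In MM.1S the members summed to 4719, 3837 and 3540 RPKM in MONO, to 3853, 3602 and 3577 in TSW and to 3124, 3659 and 3509 in CO. Here replicate 1 of MONO was the highest and replicate 1 of CO the lowest, and the other 7 libraries ran from 3509 to 3853 RPKM with the conditions mixed. In these bulk samples, a smaller number of cells of a type and less RNA per cell cannot be told apart.

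**Figure D1:**
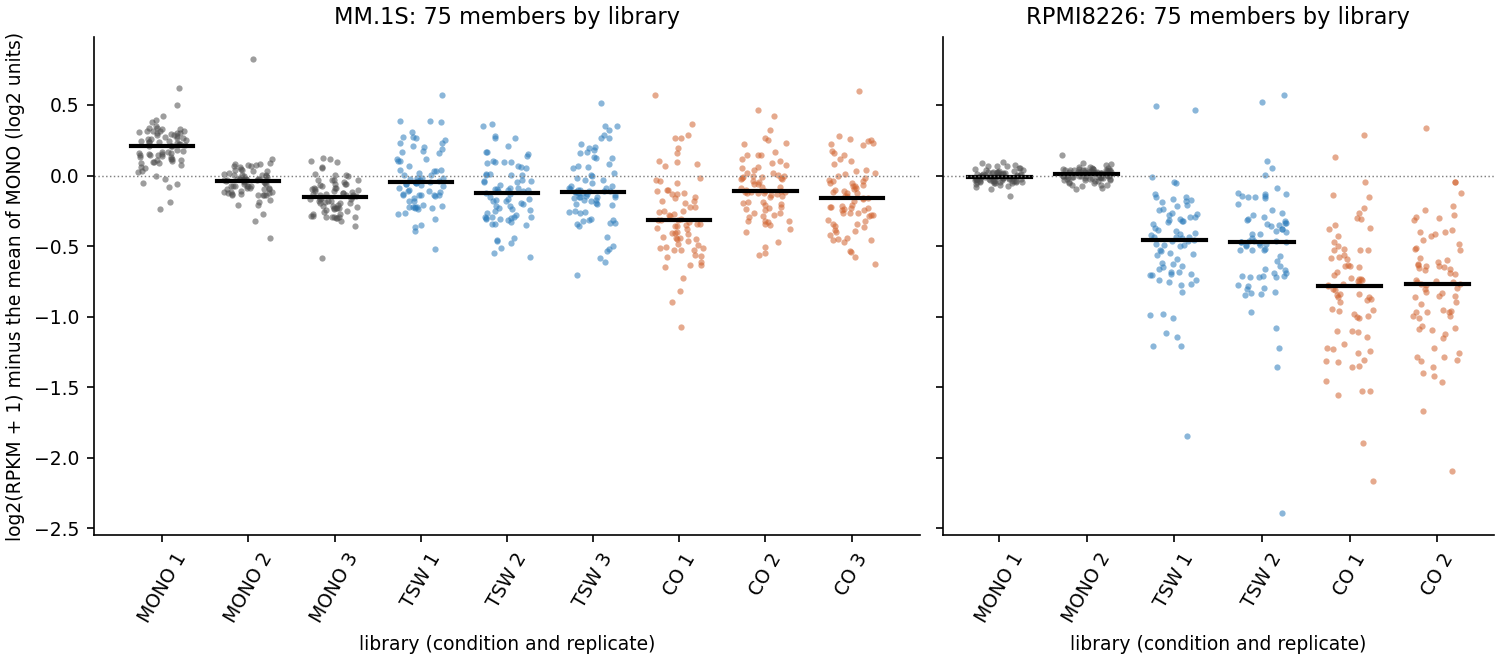
Each point is 1 of the 75 members in 1 library, as log2(RPKM + 1) minus the mean of that member in the MONO libraries of the line, with the black bars at the median of the members in each library. In RPMI8226 the medians of TSW and CO lie below those of MONO, while in MM.1S the libraries overlap and replicate 1 of MONO is the highest.

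Levels per length differed widely among members. In MM.1S the highest mean RPKM over the 9 libraries belonged to MRPL51 (261) and MRPS34 (156), both proteins without a bacterial counterpart, and the lowest to MRPL23 (2.32) and MRPS31 (6.60). In RPMI8226 the highest means over all 6 libraries were those of MRPL18 (124) and MRPL51 (122), and the lowest those of MRPL23 (1.22) and MRPS25 (5.01). That order mixes conditions, since MRPL51 was above MRPL18 in TSW and CO, and the mean of MRPS24 was below that of MRPS25 in MONO and CO. MRPL51 ran from 207 to 382 RPKM over the MM.1S libraries, and in RPMI8226 it was at 161 and 168 in MONO, 112 and 118 in TSW and 87.8 and 87.7 in CO. MRPL18, a homolog of bacterial L18, was at 187 and 174 RPKM in RPMI8226 MONO, 108 and 105 in TSW and 83.7 and 84.4 in CO. Both were ordered MONO, TSW, CO without overlap in RPMI8226.

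The members are short genes with near-average GC content, and many have copies. Their median counted length was 1540 bases, from 518 to 10829, against 3617 over the genes tested in RPMI8226, and their median GC content was 46.8% against 47.6%. RefSeq names a pseudogene after 40 of the 75 members, and for these the values are uncertain where tags could fall on either copy. The settings for strand and for tags with several alignments are not given in the sources used here, so values of genes that overlap a neighbour are uncertain as well.

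Markers of stromal cells were followed because CO cells were sorted from a mixed culture. Of the 25 stromal markers, 11 to 17 were listed at 0 in the MONO and TSW libraries of both lines and 1 to 3 in the CO libraries. They summed to 24.98, 28.1 and 28.2 RPKM in MM.1S MONO, to 17.1, 17.6 and 17.4 in TSW and to 178, 192 and 163 in CO. The most abundant was CAV1 in the MONO and TSW libraries of MM.1S and the collagenase gene MMP1 in CO (44.6, 46.9 and 41.0 RPKM). In RPMI8226 FN1 was the most abundant in every library, at 3990 and 4310 RPKM in MONO, 1678 and 1962 in TSW and 2007 and 2169 in CO. The remaining stromal markers of that line summed to 32.3 and 32.6 in MONO, 21.2 and 21.8 in TSW and 114 and 166 in CO. COL1A2 and MMP1 were listed at 0 in all 10 MONO and TSW libraries. In RPMI8226 TSW vs MONO 1 of the 12 stromal markers tested rose, TAGLN (1.54 and 1.13 RPKM in MONO, 2.36 and 2.44 in TSW), and 2 fell. Of the same 12, 10 rose and 2 fell in CO vs MONO, and 9 rose and 0 fell from TSW to CO. Of 16 tested in MM.1S, 15 rose and 1 fell in CO vs MONO, and 15 rose and 0 fell from TSW to CO. The study reports that few HS5 cells remained among the MM cells sorted from the lower chamber, with data not shown. It left stromal signature genes out of its analyses, whereas such genes were kept here among all genes tested. The part of stromal RNA in the members' values was not tested in TSW or CO.

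Of the 11 plasma cell markers, at most 1 was listed at 0 in any library, and JCHAIN, which joins polymeric immunoglobulin, was the most abundant in all 15. They summed to 2486 and 2401 RPKM in RPMI8226 MONO, to 4456 and 4275 in TSW and to 4540 and 4462 in CO. Their sum was thus higher where that of the members was lower. CD38, on which the cells were sorted, went with this sum, and the part of the sort in the values was not tested. CD38 was at 16.02 and 15.97 RPKM in RPMI8226 MONO, 49.63 and 41.99 in TSW and 52.22 and 53.68 in CO. IRF4 went the other way, from 78.87 and 77.73 RPKM in MONO to 43.68 and 37.19 in TSW and 43.27 and 38.26 in CO. TNFRSF17 did so too, from 72.95 and 68.83 to 6.404 and 4.433 in TSW and 4.131 and 3.962 in CO. In MM.1S they summed to 5936, 5008 and 5251 RPKM in MONO, to 4086, 3965 and 3953 in TSW and to 3746, 3907 and 3584 in CO. Among the genes tested, 7 plasma cell markers rose and 2 fell in each coculture condition of RPMI8226 against MONO, and in MM.1S 4 rose and 2 fell in TSW and 3 rose and 3 fell in CO.

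The comparison of TSW with MONO sets MM cells that shared medium with HS5 cells, without contact, beside MM cells alone. Per the methods of the study, coculture wells held MM cells in both chambers, and a trypsin step is described for coculture. The study adds that exosomes can cross the membrane. Effects of these differences and of soluble factors from HS5 cells cannot be told apart here. In RPMI8226, 65 of the 75 members fell and 2 rose in TSW, where 38% of all genes tested fell and 29% rose. The median log2 fold change of the members was -0.45, against -0.08 for all genes tested, and 25 members fell by more than 1.5-fold, as did 17.9% of the genes. All TSW values lay below all MONO values for 69 of the 75 members, a pattern found in 46.9% of the genes tested. The exceptions were MRPL10, MRPL28, MRPL33, MRPL53, MRPS18A and MRPS24. Because both TSW libraries stood apart in RPS14P3 and trnN, the size of these changes cannot be told apart from a difference of these libraries. Both subunits were affected, with 42 of 49 members of the large subunit falling (median -0.44) and 23 of 26 of the small subunit (median -0.47).

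The largest decrease was that of MRPL1, a protein of the mobile L1 stalk where spent tRNA leaves the ribosome, encoded on chromosome 4 from 77862830 to 77952785 (GRCh38.p14). Its RPKM in RPMI8226 was 19.8 and 19.5 in MONO, 4.75 and 2.95 in TSW and 3.62 and 3.85 in CO. Values of both coculture conditions were thus far below MONO and overlapped each other. The ratio of the MONO to the TSW mean was 5.11, and the log2 fold change was -2.12 (SE 0.15, n = 2, adjusted p = 7.45e-07). In MM.1S MRPL1 was at 28.4, 14.3 and 19.0 RPKM in MONO, 16.8, 15.97 and 17.99 in TSW and 18.1, 14.7 and 17.6 in CO, and there the conditions overlapped. No test of that difference between the lines was made.

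MRPL3 and MRPL35, both in bacterial ribosomal protein families of the large subunit, followed. MRPL3 was at 153 and 147 RPKM in RPMI8226 MONO, 64.6 and 58.0 in TSW and 62.4 and 55.6 in CO. As with MRPL1, TSW and CO were alike and apart from MONO, with a log2 fold change in TSW of -1.28 (SE 0.08, adjusted p = 3.5e-07). MRPL35 was at 36.3 and 35.8 RPKM in MONO, 16.1 and 14.8 in TSW and 13.6 and 13.9 in CO. Its values were lower in both coculture conditions without overlap, by -1.17 (SE 0.08, adjusted p = 4.4e-07) on the log2 scale in TSW.

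MRPL10 and MRPL53 were the members that rose in RPMI8226 TSW. MRPL10, which anchors the stalk of MRPL12 copies to the large subunit, was at 37.8 and 37.0 RPKM in MONO, 53.1 and 56.0 in TSW and 45.8 and 47.4 in CO. It was lowest in MONO, highest in TSW and between them in CO without overlap, and the log2 fold change in TSW was 0.53 (SE 0.07, adjusted p = 5.92e-05). MRPL53, a protein particular to mitoribosomes, was at 57.1 and 59.4 RPKM in MONO, 80.9 and 84.1 in TSW and 56.5 and 56.4 in CO. It was thus high in TSW only, with a log2 fold change of 0.49 (SE 0.07, adjusted p = 7.58e-05) against MONO. Since both TSW libraries stood apart in RPS14P3 and trnN, a change in TSW alone cannot be told apart from a difference of these libraries. With 1 RPMI8226 library left out, so that a condition of 1 library is assumed to vary like the others, between 55 and 62 members fell and the same 2 rose, where 32.4% to 36.6% of all genes fell and 25.3% to 28% rose.

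**Figure D2:**
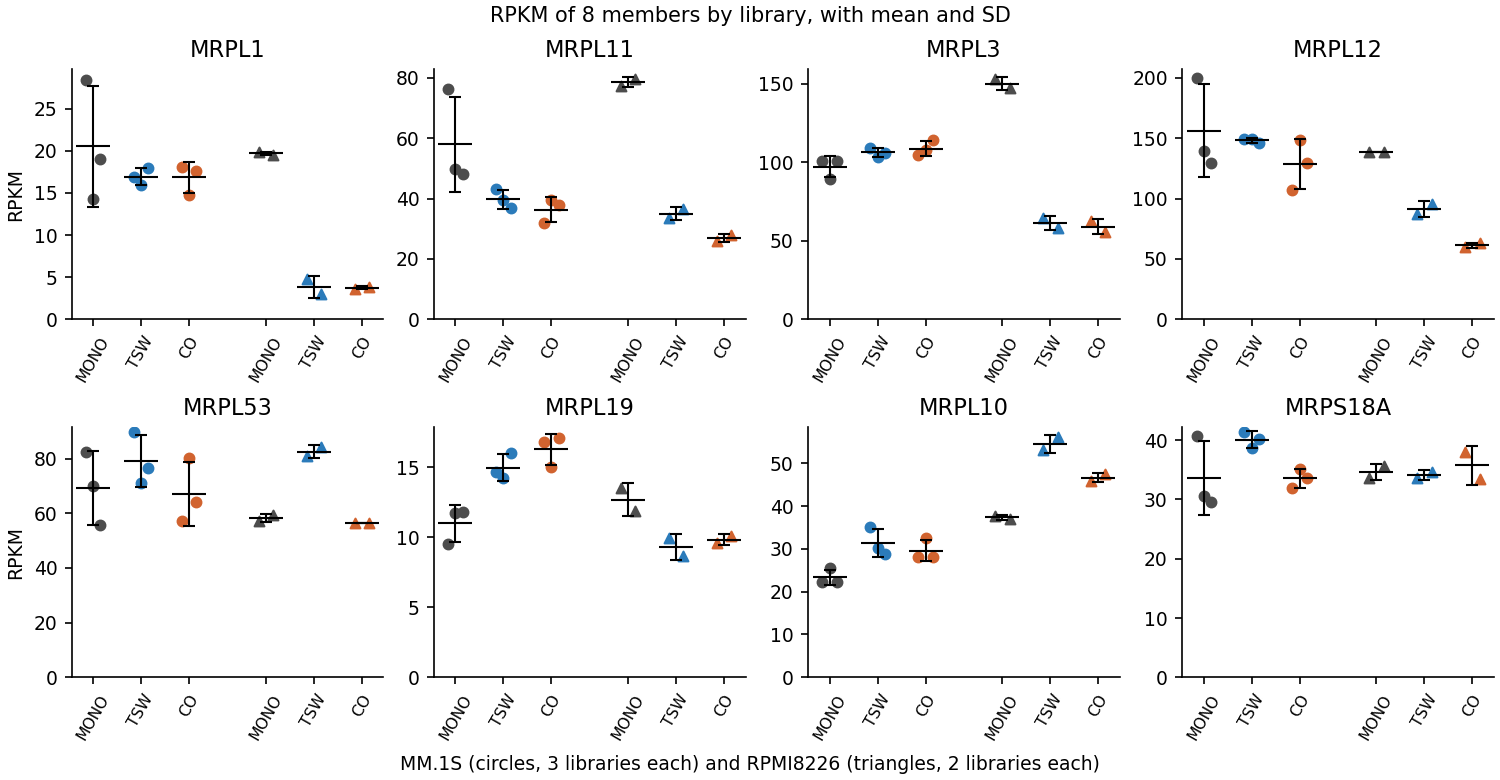
RPKM of 8 members in every library, with circles for MM.1S and triangles for RPMI8226, horizontal marks for the mean of a condition and bars for its SD (n = 3 in MM.1S and n = 2 in RPMI8226). MRPL1, MRPL11, MRPL3 and MRPL12 were highest in MONO in RPMI8226, MRPL53 was highest in TSW, and MRPL10 was lowest in MONO in both lines.

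In the comparison of CO with MONO, direct contact with HS5 cells comes on top of all that differs between TSW and MONO. In RPMI8226, 70 of the 75 members fell and 1, MRPL10, rose in CO, where 41.7% of all genes tested fell and 30.3% rose. The median log2 fold change of the members was -0.77, against -0.09 for all genes tested, and 55 members fell by more than 1.5-fold, as did 22.9% of the genes. All CO values lay below all MONO values for 73 of the 75 members, against 49.5% of the genes tested, with MRPL10 and MRPS18A as the exceptions. All 26 members of the small subunit fell (median -0.79) and 44 of 49 of the large subunit (median -0.76). Members with a counterpart in bacterial ribosomes (41 of 45 fell, median -0.80) and those without (29 of 30 fell, median -0.76) were close to each other.

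MRPL1 (log2 fold change -2.13, SE 0.15, adjusted p = 4.93e-07), MRPL21 and MRPL11 had the largest decreases. MRPL21, of the bacterial L21 family, was at 57.7 and 61.8 RPKM in RPMI8226 MONO, 26.4 and 30.1 in TSW and 15.3 and 18.1 in CO. The conditions were ordered MONO, TSW, CO without overlap, and the log2 fold change in CO was -1.78 (SE 0.10, adjusted p = 8.58e-08). MRPL11, which forms the base of the factor-binding stalk, was at 77.4 and 79.7 RPKM in MONO, 33.5 and 36.6 in TSW and 26.0 and 27.9 in CO. It had the same order without overlap, with log2 fold changes of -1.14 in TSW (adjusted p = 4.67e-07) and -1.51 in CO (adjusted p = 4.9e-08).

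MRPL12 and MRPL58 have roles beyond the structure of the ribosome. MRPL12, the stalk protein that also binds the mitochondrial RNA polymerase, was at 138 RPKM in both MONO libraries of RPMI8226, 86.9 and 95.9 in TSW and 60.02 and 63.0 in CO. MRPL58, a peptidyl-tRNA hydrolase that rescues stalled ribosomes, was at 39.0 and 38.6 RPKM in MONO, 29.8 and 29.2 in TSW and 19.7 and 21.0 in CO. Both genes fell stepwise without overlap, by -1.16 (SE 0.07, adjusted p = 2.06e-07) and -0.90 (SE 0.07, adjusted p = 1.3e-06) on the log2 scale in CO vs MONO. In MM.1S neither passed the test in any comparison, with adjusted p between 0.227 and 0.998.

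The paralogs MRPS18A, MRPS18B and MRPS18C descend from bacterial S18 and did not move alike in RPMI8226. MRPS18A, which sits in the large subunit, was at 33.6 and 35.6 RPKM in MONO, 33.6 and 34.7 in TSW and 38.0 and 33.4 in CO, and the conditions overlapped (log2 fold change 0.04 in CO, SE 0.08, adjusted p = 0.654). MRPS18B was at 68.2 and 70.2 RPKM in MONO, 61.2 and 62.4 in TSW and 51.2 and 51.6 in CO, a stepwise fall of -0.42 (SE 0.06, adjusted p = 0.000171) in CO. MRPS18C was at 21.9 and 19.8 RPKM in MONO, 16.6 and 16.3 in TSW and 14.2 and 15.5 in CO, a fall of -0.46 (SE 0.08, adjusted p = 0.000561). The difference between the paralogs was not tested, and RefSeq names a pseudogene after each of them.

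MRPL53, MRPL33 and MRPL23 were the other members that did not pass in CO vs MONO, with adjusted p of 0.559, 0.063 and 0.0551. With the replicate block 72 members fell, the 70 that fell without it among them, where 43.4% of all genes did. The members that do not pass thus depend on this choice. With 1 library left out, between 66 and 70 members fell, where 36.1% to 42.7% of all genes did. Without both TSW libraries, an alternative chosen after seeing the data, 70 members fell and 1 rose (42.7% and 31.1% of all genes), with a median log2 fold change of -0.77.

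The comparison of CO with TSW sets MM cells in contact with HS5 cells beside those in the upper transwell. In RPMI8226, 50 of the 75 members were lower in CO than in TSW and 1 was higher, where 17.5% of all genes tested were lower and 10.1% higher. Members had a median log2 fold change of -0.33 and all genes tested of -0.04, and 8 members fell by more than 1.5-fold, as did 2.39% of the genes. For 56 of the 75 members, all MONO values lay above all TSW values and these above all CO values, a pattern found in 21.5% of the genes tested. Of the large subunit 33 of 49 members fell and of the small subunit 17 of 26. Because both TSW libraries stood apart in RPS14P3 and trnN, this step cannot be told apart from a difference of these libraries. The count depended on single libraries, as did that of all genes. Without replicate 1 of CO 22 members fell, where 5.22% of all genes did, without replicate 2 of CO 35 (8.77%) and without replicate 2 of TSW 38 (10.7%). With length and GC content corrected for by loess, 2 members fell by more than 1.5-fold, as did 0.907% of the genes, and the median was -0.21.

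MRPS24, MRPL14 and MRPL21 had the largest decreases from TSW to CO. MRPS24, a homolog of bacterial S3, was at 6.10 and 7.67 RPKM in RPMI8226 MONO, 6.04 and 7.13 in TSW and 2.64 and 2.75 in CO. MONO and TSW overlapped and CO was lower than both, by -1.03 (SE 0.12, adjusted p = 0.000353) on the log2 scale against TSW. The TSW libraries stood apart in RPS14P3 and trnN, as did replicate 2 of MM.1S MONO, where MRPS24 was high, so the size of this step cannot be told apart from a difference of these libraries. MRPL14, at the interface of the subunits, was at 32.0 and 32.3 RPKM in MONO, 19.7 and 20.8 in TSW and 11.1 and 12.6 in CO. It fell at each step, by -0.73 (SE 0.08, adjusted p = 0.000331) from TSW to CO, and MRPL21 fell by -0.73 (SE 0.10, adjusted p = 0.000776).

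MRPL23, near the exit of the peptide tunnel, was the member that rose from TSW to CO. It was at 1.76 and 1.75 RPKM in MONO, 0.619 and 0.677 in TSW and 0.992 and 1.53 in CO. The values are low, with at least 34 PETs in any library, and CO lay between the other conditions. Because both TSW libraries stood apart in RPS14P3 and trnN, this rise cannot be told apart from a difference of these libraries. The log2 fold change against TSW was 0.45 (SE 0.13, adjusted p = 0.0259), and the call was lost without either TSW library (0.42 and 0.47) or without replicate 2 of CO (0.27).

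In MM.1S fewer members passed the test. In TSW vs MONO 4 of the 75 members rose and 5 fell, where 14.4% of all genes tested rose and 12.9% fell, so the shares of members were below those of all genes. Members had a median log2 fold change of -0.10 and all genes tested of 0.01, and no member moved by more than 1.5-fold. All TSW values lay below all MONO values for 14 members, against 20.6% of the genes tested. The 5 that fell, MRPL11, MRPL32, MRPL44, MRPL49 and MRPL54, and the 4 that rose, MRPL10, MRPL19, MRPL42 and MRPS30, are all proteins of the large subunit.

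The promoters of the most decreased members of MM.1S TSW vs MONO, MRPL32 and MRPL11, and of increased members, MRPL19 and MRPS30, are printed. They let the start regions of members that moved in opposite directions in that comparison be compared. In RPMI8226 TSW vs MONO MRPL32, MRPL11, MRPL19 and MRPS30 all fell. The MM.1S rises of MRPL19 and MRPS30 were lost with length and GC content corrected for. MRPL10 rose more than MRPS30 (0.41 and 0.30 on the log2 scale), and it has no entry in the promoter table. Each sequence runs from 250 bases before to 50 bases after the RefSeq start of the gene in GRCh38.p14, in the direction of transcription, and capitals mark matches to the motifs searched. The regions are chr7:42932126-42932425 (plus strand) for MRPL32, chr11:66438799-66439098 (minus strand) for MRPL11, chr2:75646533-75646832 (plus strand) for MRPL19 and chr5:44808697-44808996 (plus strand) for MRPS30.
MRPL32: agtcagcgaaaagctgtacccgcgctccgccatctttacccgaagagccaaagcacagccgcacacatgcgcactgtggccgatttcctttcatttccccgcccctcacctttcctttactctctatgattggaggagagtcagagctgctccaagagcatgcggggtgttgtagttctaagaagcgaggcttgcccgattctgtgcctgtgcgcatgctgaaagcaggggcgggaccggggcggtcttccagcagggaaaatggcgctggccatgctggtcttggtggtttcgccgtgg
MRPL11: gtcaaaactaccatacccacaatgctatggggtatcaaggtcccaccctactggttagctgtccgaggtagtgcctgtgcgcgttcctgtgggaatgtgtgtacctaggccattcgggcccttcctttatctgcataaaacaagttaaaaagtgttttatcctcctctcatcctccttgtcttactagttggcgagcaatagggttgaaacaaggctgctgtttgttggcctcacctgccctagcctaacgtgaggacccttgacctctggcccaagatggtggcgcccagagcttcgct
MRPL19: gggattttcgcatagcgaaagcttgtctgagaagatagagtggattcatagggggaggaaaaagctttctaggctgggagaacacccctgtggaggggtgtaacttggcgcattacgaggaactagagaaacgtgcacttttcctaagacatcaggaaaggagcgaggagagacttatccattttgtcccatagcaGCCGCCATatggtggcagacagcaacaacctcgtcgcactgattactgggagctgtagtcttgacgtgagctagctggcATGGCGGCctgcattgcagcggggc
MRPS30: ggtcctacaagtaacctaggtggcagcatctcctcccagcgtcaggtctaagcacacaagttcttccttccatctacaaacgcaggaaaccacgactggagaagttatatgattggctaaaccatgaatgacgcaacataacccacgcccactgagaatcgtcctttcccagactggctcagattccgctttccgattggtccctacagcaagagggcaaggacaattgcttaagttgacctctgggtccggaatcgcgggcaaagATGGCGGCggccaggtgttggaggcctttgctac
The motifs searched on both strands were CCGGAAG of ETS factors such as GABPA, GCGCATGCG of NRF1, ATGGCGGC of YY1 and the E-box CACGTG. MRPL19 held the YY1 letters at base 197 on the reverse strand and at base 276 on the strand given, MRPS30 held them at base 267, and MRPL32 and MRPL11 held none of the 4 motifs.

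Promoter sequences were found for 67 of the 75 members. The ETS letters were in 28 of them (41.8%), against 10.7% of all 27305 promoters of the same length and 21.2% of those of tested genes. The YY1 letters were in 18 (26.9%), against 3.21% of all promoters and 6.89% of those of tested genes. The NRF1 letters were in 3 (4.48%, against 2.10% and 4.04%) and the E-box in 6 (8.96%, against 7.43% and 10.7%). No member promoter had overlapping matches, 46 had at least 1 match (68.7%, against 20.4% of all promoters and 36.2% of those of tested genes), and 21 had none. A match says only that the letters are present.

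MRPL32, a zinc-binding protein that is cleaved in the mitochondrion before it joins the ribosome, had the largest decrease in MM.1S TSW. It was at 70.6, 53.4 and 54.0 RPKM in MONO, 40.8, 39.1 and 39.0 in TSW and 37.6, 39.6 and 37.9 in CO. All MONO values were above all others, also without replicate 1, and TSW and CO overlapped. The log2 fold change in TSW was -0.56 (SE 0.11, n = 3, adjusted p = 0.00372). MRPL32 and MRPL44 kept the call in TSW whichever library was left out, whereas MRPL11, MRPL49 and MRPL54 lost it when each TSW library in turn was left out. MRPL11 also lost it without replicate 2 or 3 of CO, MRPL49 without replicate 2 of MONO or 3 of CO, and MRPL54 without replicate 1 or 2 of MONO or replicate 2 or 3 of CO. MRPL11, MRPL49 and MRPL54 lost it with the replicate block as well. Without the expression filter MRPL11 and MRPL54 lost it, and MRPL54 did with a pseudocount of 0.1 or median-of-ratios scaling.

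MRPL11 was at 76.2, 49.8 and 48.1 RPKM in MM.1S MONO, 43.0, 39.5 and 36.7 in TSW and 31.8, 39.6 and 37.7 in CO. Replicate 1 of MONO was far above the rest, and the lowest MONO value was still above all TSW and CO values. The log2 fold change in TSW was -0.51 (SE 0.16, adjusted p = 0.0399). MRPL54, a protein particular to mitoribosomes, was at 197, 148 and 130 RPKM in MONO, 126, 112 and 95.5 in TSW and 83.5, 112 and 107 in CO. MONO was above TSW and CO without overlap, and the adjusted p in TSW was 0.0495 for a log2 fold change of -0.50 (SE 0.17).

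MRPL19, of the bacterial L19 family, had the largest increase in MM.1S TSW. It was at 9.49, 11.7 and 11.8 RPKM in MONO, 14.6, 14.2 and 16.1 in TSW and 16.8, 15.04 and 17.1 in CO. All coculture values were above all MONO values, with a log2 fold change in TSW of 0.42 (SE 0.11, adjusted p = 0.0149). MRPL10 was at 22.4, 25.4 and 22.3 RPKM in MONO, 35.0, 30.3 and 28.7 in TSW and 28.2, 32.5 and 28.05 in CO. Again the groups were separate, with a log2 fold change in TSW of 0.41 (SE 0.10, adjusted p = 0.0157). MRPS30, a large subunit protein in spite of its symbol, was at 25.6, 26.5 and 29.5 RPKM in MONO, 33.1, 33.3 and 34.9 in TSW and 33.4, 34.2 and 28.8 in CO. TSW was above MONO without overlap (0.30, SE 0.09, adjusted p = 0.0359), while CO overlapped MONO. The call in TSW was lost for MRPL19 without replicate 3 of TSW, for MRPL10 without replicate 1 of TSW, for MRPS30 without replicate 2 of MONO or each TSW library in turn, and for MRPL42 without replicate 2 of MONO, each TSW library in turn or replicate 3 of CO. The rise of MRPL42 in TSW was also lost with median-of-ratios scaling, and those of MRPL42 and MRPS30 with the replicate block.

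The counts of MM.1S TSW vs MONO changed with single libraries. Without replicate 1 of MONO 11 members rose and 4 fell (median -0.01), where 16.9% of all genes rose and 16.9% fell. Without replicate 2 of MONO 2 rose and 3 fell (13.3% and 10.4% of all genes), and without replicate 3 of MONO 4 rose and 15 fell (17.3% and 15.6%). Without replicates 1, 2 and 3 of TSW 1, 2 and 1 members rose, where 9.45%, 8.49% and 8.90% of all genes did, and 2 fell in each case (8.11%, 7.32% and 7.55%). Without replicates 1, 2 and 3 of CO, which enter through the shared spread, 4, 4 and 3 rose (13.1%, 12.9% and 12.3% of all genes) and 6, 3 and 2 fell (12.1%, 11.7% and 10.9%). All 4 rises and 4 of the 5 falls were kept without replicate 1 of MONO. Without replicate 3 of MONO the share of members that fell was above that of all genes, whereas with all libraries it was below.

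In MM.1S CO vs MONO 3 of the 75 members rose and 12 fell, where 16.2% of all genes tested rose and 15% fell, so the share of members that fell was near that of all genes. Members had a median log2 fold change of -0.18 and all genes tested of 0.01, and 4 members fell by more than 1.5-fold, as did 4.65% of the genes. All CO values lay below all MONO values for 19 members, against 20.5% of the genes tested, and 1 member was ordered MONO, TSW, CO without overlap, against 1.28%. The members that fell were MRPL9, MRPL11, MRPL15, MRPL20, MRPL27, MRPL32, MRPL44, MRPL49 and MRPL54 of the large subunit and MRPS12, MRPS17 and MRPS28 of the small subunit. MRPS12 is a homolog of the bacterial protein at the decoding centre.

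MRPL27, which lies near the site of peptide bond formation, had the largest decrease in MM.1S CO. It was at 82.0, 60.6 and 55.01 RPKM in MONO, 50.2, 44.1 and 44.4 in TSW and 30.3, 44.04 and 49.0 in CO. The CO libraries were all below MONO but spread widely, with replicate 1 the lowest, and the log2 fold change was -0.67 (SE 0.18, adjusted p = 0.0174). MRPL54 (-0.64, SE 0.17, adjusted p = 0.0165) and MRPL11 (-0.63, SE 0.16, adjusted p = 0.0141) followed, and MRPL32 fell by -0.61 (SE 0.11, adjusted p = 0.00228). MRPL19 (0.53, SE 0.11, adjusted p = 0.00406), MRPL10 (0.33, SE 0.10, adjusted p = 0.0357) and MRPL42 (0.25, SE 0.09, adjusted p = 0.0496) were the members that rose. MRPL42, a protein particular to mitoribosomes, was at 24.0, 22.2 and 24.4 RPKM in MONO, 27.8, 28.5 and 29.7 in TSW and 30.6, 26.5 and 27.5 in CO, with both coculture conditions above MONO. The call in CO was kept for MRPL19 whichever library was left out, lost for MRPL10 without replicate 3 of MONO, 2 of TSW or each CO library in turn, and kept for MRPL42 only without replicate 1 or 3 of MONO. The call of MRPL42 in CO was also lost with median-of-ratios scaling, with the replicate block and with voom in limma.

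Single libraries changed these counts too. Without replicates 1, 2 and 3 of MONO 6, 2 and 3 members rose in CO, where 18.1%, 15% and 19.7% of all genes did, and 9, 10 and 23 fell (18%, 11.8% and 18.3%). Without replicates 1, 2 and 3 of CO 1 member, MRPL19, rose in each case (10%, 13% and 9.99% of all genes) and 3, 11 and 7 fell (8.8%, 13% and 9.05%), and those left without replicate 1 were MRPL32, MRPL49 and MRPS28. Without replicates 1, 2 and 3 of TSW 2, 1 and 2 rose (13.8%, 13.3% and 13.9%) and 9, 8 and 9 fell (12.4%, 12% and 12.5%). Without replicate 3 of MONO the share of members that fell was well above that of all genes, whereas with all libraries it was near it. Of the 4 falls past 1.5-fold, 0 were past it without replicate 1 of MONO and 1 without replicate 1 of CO.

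In MM.1S CO vs TSW limma called 0 members higher and 0 lower, where 0.384% of all genes tested were higher and 0.0492% lower. No member had an unadjusted p under 0.05, the smallest adjusted p was 0.998, and voom in limma on the recovered PETs also called 0. Members had a median log2 fold change of -0.10 and all genes tested of -0.00. MRPS24 had an unusual value in this line, at 14.35, 31.0 and 11.05 RPKM in MONO, 15.4, 13.7 and 14.1 in TSW and 10.5, 13.2 and 12.05 in CO. Its high value came from replicate 2 of MONO, the library that also stood apart in RPS14P3 and trnN.

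Members that passed in the same direction in both lines are given here with the shares of all genes that did so. In CO vs MONO 12 members fell in both, which are 12 of the 12 that fell in MM.1S and 12 of the 70 that fell in RPMI8226, and 9.97% of the 9397 genes tested in both lines fell in both. MRPL10 rose in both lines in TSW and in CO, 1 of 75 members, where 8.88% of the genes rose in both lines in TSW and 10.2% in CO. In TSW vs MONO 5 members fell in both, out of 5 in MM.1S and 65 in RPMI8226, against 7.75% of the genes. The shared members were MRPL9, MRPL11, MRPL15, MRPL20, MRPL27, MRPL32, MRPL44, MRPL49, MRPL54, MRPS12, MRPS17 and MRPS28 in CO, and MRPL11, MRPL32, MRPL44, MRPL49 and MRPL54 in TSW.

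Members that rose in MM.1S and fell in RPMI8226 numbered 3 of 75 in TSW, against 1.74% of the genes tested in both lines, and 2 of 75 in CO, against 2.01%, a share near that of all genes. MRPL19 rose in MM.1S and fell in RPMI8226, where it was at 13.5 and 11.9 RPKM in MONO, 9.96 and 8.66 in TSW and 9.58 and 10.1 in CO, with log2 fold changes of -0.41 (adjusted p = 0.00365) and -0.34 (adjusted p = 0.0101). The RPMI8226 CO call was lost without replicate 1 of MONO (-0.25) or of CO (-0.30). MRPL42 rose in MM.1S, where the calls depended on single libraries, and was at 27.9 and 26.3 RPKM in RPMI8226 MONO, 18.1 and 14.9 in TSW and 18.5 and 17.0 in CO, and so fell there without overlap, by -0.69 and -0.58. MRPS30 rose in MM.1S TSW and fell in RPMI8226 TSW by -0.37 (adjusted p = 0.00282). Members whose TSW libraries all lay above MONO in MM.1S and below it in RPMI8226, passing or not, numbered 6 of 75, against 5.57% of the genes, and for CO 4 of 75, against 5.38%, so these counts are near those of all genes. The differences between the lines were not tested.

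Across the 75 members, Pearson's r between the log2 fold changes of the lines was 0.507 for CO and 0.336 for TSW, each against MONO, and 0.492 for CO against TSW. Over all 9397 genes tested in both lines it was 0.515, 0.428 and 0.553. These are correlations across genes of the same libraries, which are not independent replicates, and they are given as a description.

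**Figure D3:**
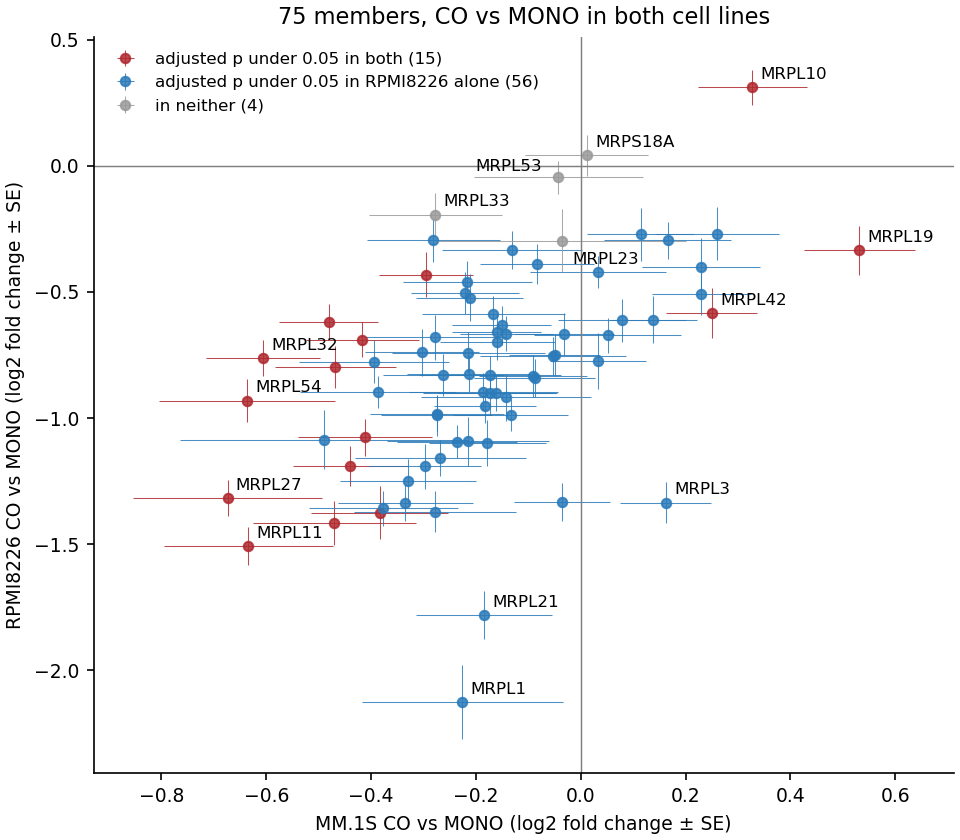
Log2 fold change in CO vs MONO of each of the 75 members in MM.1S (horizontal) and RPMI8226 (vertical), with bars for the SE and colours for the members with an adjusted p under 0.05 in both lines (15), in RPMI8226 alone (56) or in neither (4). Most members lie below 0 in RPMI8226 and between -0.67 and 0.53 in MM.1S.

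The relation of the fold changes to the length and GC content of the members differed between comparisons. Across the 75 members, r between GC content and the log2 fold change in CO vs TSW was -0.54 in MM.1S and -0.35 in RPMI8226, and with the log2 of length it was 0.42 and 0.35. In CO vs MONO r with GC content was -0.29 in MM.1S and -0.09 in RPMI8226, and r with length 0.42 and 0.15. In TSW vs MONO r with GC content was -0.08 in MM.1S and 0.13 in RPMI8226, and r with length 0.28 and -0.07. After such a correction for both, 8 members rose and 13 fell in MM.1S TSW vs MONO, in place of 4 and 5, and 18.3% of all genes rose and 20.7% fell, so the members' shares were below those of all genes. All 5 falls were kept, and of the rises those of MRPL10 and MRPL42 were kept while those of MRPL19 (log2 fold change 0.16) and MRPS30 were lost. In MM.1S CO vs MONO the rises of MRPL19 (0.18) and MRPL42 (0.10) were lost after the correction and 11 of the 12 falls were kept. So the increase of MRPL19, the largest of MM.1S in both comparisons, depended on this choice, while MRPL10 kept its call in both.

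Other components of mitochondrial translation were followed by fixed lists, and their counts stand beside these shares of all genes tested. In RPMI8226 38% fell and 29% rose in TSW vs MONO, and 41.7% fell and 30.3% rose in CO vs MONO. From TSW to CO 17.5% fell and 10.1% rose there. In MM.1S 12.9% fell and 14.4% rose in TSW vs MONO, and 15% fell and 16.2% rose in CO vs MONO. The mitoribosome subunits without an MRP name, DAP3, PTCD3, AURKAIP1, CHCHD1 and GADD45GIP1, all fell in RPMI8226 CO vs MONO (median -0.60), and 3 of 5 fell in TSW and 4 of 5 from TSW to CO. AURKAIP1, of the small subunit, was at 96.8 and 97.4 RPKM in MONO, 63.9 and 68.0 in TSW and 41.7 and 43.5 in CO, without overlap. PTCD3 rose in MM.1S TSW (0.31, adjusted p = 0.0366) and CO (0.38, adjusted p = 0.0129), where AURKAIP1 fell in CO (-0.48, adjusted p = 0.0483). The symbols mrpl36, mrpl52 and mrps6, written in lower case in the tables and so outside the rule, fell in RPMI8226 CO vs MONO (3 of 3, median -0.98) and in TSW vs MONO (3 of 3, median -0.76). In MM.1S mrps6 fell in TSW (-0.63) and CO (-0.52).

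Mitochondrial translation factors start, extend and end the peptide on the mitoribosome. Of 16 factors, 11 fell and 2 rose in RPMI8226 CO vs MONO (median -0.45), where 41.7% of all genes fell and 30.3% rose. In TSW vs MONO 8 fell and 1 rose (median -0.25), where 38% and 29% of all genes did, and 5 fell from TSW to CO. In MM.1S 5 rose and 1 fell in CO (median 0.17) and 4 rose in TSW (median 0.14), so most of the 16 did not pass in that line. TUFM, the elongation factor that brings aminoacyl-tRNA to the mitoribosome, was at 210 and 216 RPKM in RPMI8226 MONO, 175 and 187 in TSW and 161 and 152 in CO. It fell stepwise, by -0.24 (adjusted p = 0.0101) and -0.45 (adjusted p = 0.000152), and did not pass in MM.1S (adjusted p = 0.774 and 0.74). OXA1L, which inserts new proteins into the inner membrane beside the ribosome, rose in TSW and CO of both lines, by 0.51 and 0.44 in MM.1S and by 0.48 and 0.23 in RPMI8226. GUF1, a GTPase that acts on the mitoribosome, rose in MM.1S (0.55 in TSW and 0.70 in CO) and fell in RPMI8226 (-0.57 and -0.45), and the difference between the lines was not tested.

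Genes for assembly of the mitoribosome and modification of its RNA moved with the members in RPMI8226. Of 31, 26 fell and 1 rose in CO vs MONO (median -0.69), 25 fell in TSW vs MONO (median -0.46), and 14 fell and 1 rose from TSW to CO. C1QBP, a matrix protein needed for mitochondrial translation, was at 106 and 111 RPKM in MONO, 58.4 and 61.2 in TSW and 37.2 and 40.3 in CO, a stepwise fall of -1.47 (SE 0.07, adjusted p = 4.47e-08) in CO. MRM2, which methylates the large ribosomal RNA, fell by -1.42 (adjusted p = 1.06e-07). In MM.1S 10 fell and 1 rose in CO (median -0.15), and 6 fell and 2 rose in TSW (median -0.12). RMND1 is in this list and in that of the translation factors.

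Genes for mitochondrial transcription and RNA stability also fell in RPMI8226, in 15 of 18 cases in CO (median -0.83) and in 15 of 18 in TSW (median -0.66), where 1 rose. SLIRP, which with LRPPRC stabilises mitochondrial messengers, was at 83.0 and 80.9 RPKM in MONO, 50.3 and 45.1 in TSW and 22.4 and 25.1 in CO. It fell at each step, by -1.75 (SE 0.08, adjusted p = 3.32e-08) from MONO to CO. LRPPRC fell by -0.50 (adjusted p = 0.000496) in TSW and -0.73 (adjusted p = 2.79e-05) in CO. POLRMT, the mitochondrial RNA polymerase, was at 17.4 and 17.3 RPKM in MONO, 9.64 and 11.99 in TSW and 8.53 and 8.70 in CO, and TFAM, which packages mitochondrial DNA, at 18.2 and 14.5, 8.98 and 7.70, and 10.9 and 10.2. Both were below MONO without overlap in both coculture conditions. In MM.1S 2 rose and 2 fell in CO (median -0.12), and 1 rose and 4 fell in TSW (median -0.11), and LRPPRC, POLRMT and TFAM did not pass, with adjusted p between 0.0616 and 0.976 against MONO.

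The list of mitochondrially encoded genes holds messengers and ribosomal RNAs, no tRNAs. In RPMI8226, of 15, 14 rose in CO vs MONO and 1, the small ribosomal RNA gene, fell (median 0.73), and in TSW vs MONO 9 rose and 1 fell (median 0.33). From TSW to CO 8 rose (median 0.21). ND6, a subunit of complex I, was at 991 and 901 RPKM in MONO, 2557 and 2438 in TSW and 3288 and 3426 in CO, a stepwise rise of 1.83 (SE 0.07, adjusted p = 1.19e-08) in CO. ND5, also of complex I, rose by 1.47 (adjusted p = 3.02e-08). ND1 (log2 fold change -0.03) and ND2 (-0.02) did not pass in TSW vs MONO. The tRNA gene trnN, outside the list, was at 82.3 and 120 RPKM in MONO, 2.22 and 1.53 in TSW and 228 and 221 in CO, so the TSW libraries, which stood apart in this gene, were the lowest there. The relation of these genes to the members was not tested. In MM.1S 0 of 15 passed in CO vs MONO by limma, with 4 at an unadjusted p under 0.05 and a median of 0.29, and 1 rose and 1 fell in TSW (median -0.03).

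Transcription factors and coactivators of mitochondrial genes fell in 6 of 9 cases in RPMI8226 CO (median -0.58), and in TSW 7 fell and 1 rose (median -0.49). MYC was at 384 RPKM in both MONO libraries, 152 and 166 in TSW and 131 and 134 in CO, and so fell by -1.27 (adjusted p = 9.92e-08) and -1.53 (adjusted p = 2.05e-08). In MM.1S MYC was at 344, 402 and 371 RPKM in MONO, 382, 340 and 355 in TSW and 396, 400 and 320 in CO, with the conditions mixed. NRF1 fell in RPMI8226 by -0.35 (adjusted p = 0.00621) in TSW and -0.66 (adjusted p = 7.5e-05) in CO, and the coactivator PPRC1 by -0.83 and -1.13. GABPA, the DNA-binding subunit of the ETS factor, was at 5.56 and 5.27 RPKM in MONO, 4.03 and 3.15 in TSW and 6.39 and 5.38 in CO, lower in TSW (-0.49, adjusted p = 0.0039) and overlapping MONO in CO. In MM.1S 0 of 10 passed in CO by limma, with 2 at an unadjusted p under 0.05, and PPARGC1A rose in TSW (0.69). TFAM is in this list and in that of mitochondrial transcription.

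Proliferation markers moved in the same direction as the members in RPMI8226. Of 13, 12 fell in CO vs MONO (median -1.42), 12 in TSW vs MONO (median -0.84) and 9 from TSW to CO (median -0.48). TYMS fell most (-2.28 in CO), and MCM2, of the replicative helicase, was at 123 and 124 RPKM in RPMI8226 MONO, 46.6 and 55.8 in TSW and 27.7 and 27.4 in CO, a stepwise fall of -2.13 (SE 0.09, adjusted p = 1.3e-08) in CO. In MM.1S 8 fell and 2 rose in CO (median -0.50), and 7 fell and 1 rose in TSW (median -0.35). MCM2 was at 139, 156 and 129 RPKM in MM.1S MONO, 115, 102 and 114 in TSW and 91.4, 115 and 93.3 in CO, below MONO without overlap. The part of slower growth in the members' values was not tested.

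**Figure D4:**
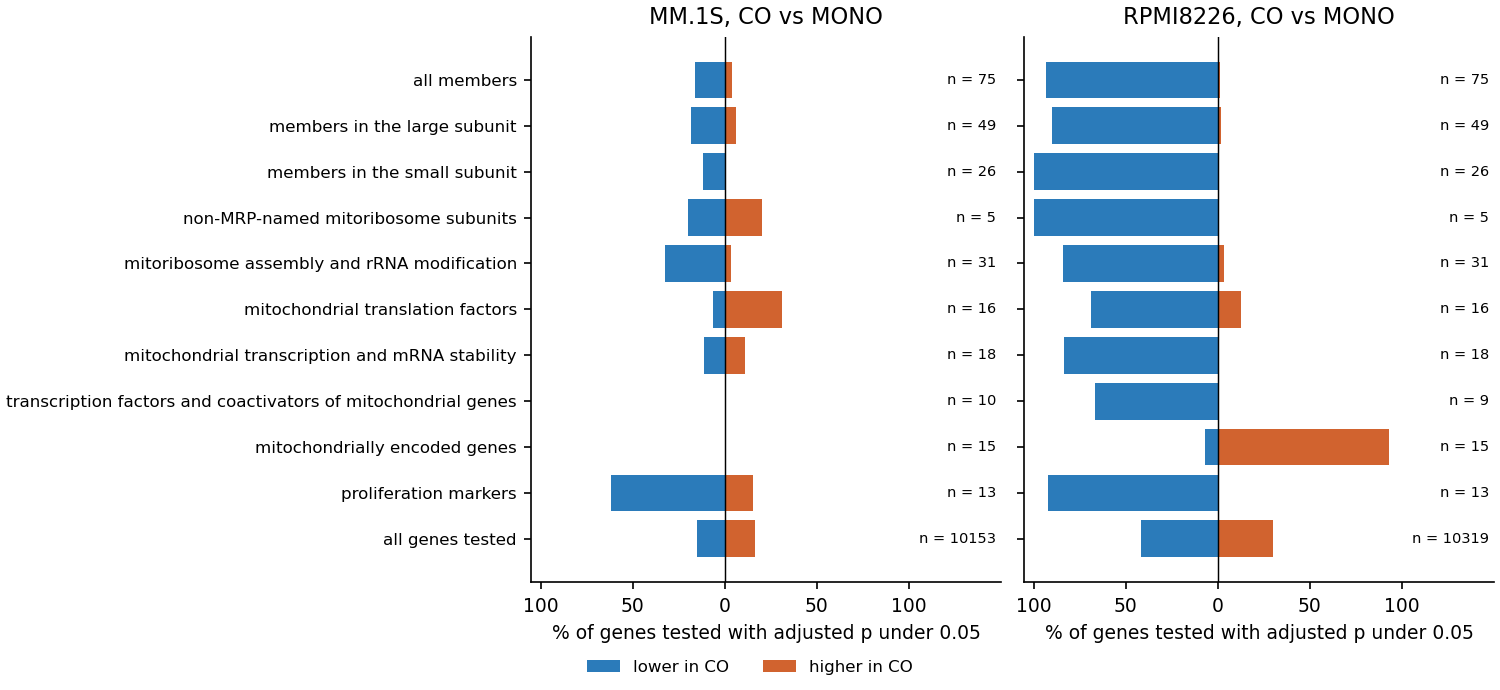
Share of the genes tested in each list that were lower (left of 0) or higher (right of 0) in CO than in MONO at an adjusted p under 0.05, with the number tested at the right of each bar. In RPMI8226 the bars of the nuclear mitochondrial lists lie to the left and that of the mitochondrially encoded genes to the right, and the lowest bar gives all genes tested.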

How the data were processed

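Reads were aligned to hg38 with Subread and counted on RefSeq genes with featureCounts by the authors, per the methods of the study and the submitters' processing notes, and RPKM values were made per gene. The deposited unit is log2(RPKM + 1) with 0.0001 added, which was subtracted here. As this unit is log2, limma was used, whereas the authors used edgeR on counts. Whole PETs were worked out from the steps between values (100% within 0.05 of a whole number) and used for depth and voom. Genes averaging 1 RPKM or more in a line entered a moderated linear model with a trend (limma 3.58.1, R 4.3.3), with the 3 conditions of a line in 1 fit, and p-values were adjusted per comparison. Python 3.11.15, numpy 2.4.6, pandas 2.3.3 and matplotlib 3.10.9 served for tables and figures. The procedure was tested on simulated data, where unchanged genes made up somewhat more of the calls than the nominal rate, so calls near the threshold are less certain.

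The members and gene lists were chosen with earlier results of these data known. Members named by rule were the 3 largest increases and decreases with an adjusted p under 0.05 in each comparison, the 2 highest and lowest in each line, those shared by the lines, the MRPS18 paralogs, MRPL12 and MRPL58. MRPL28, MRPL33, MRPS36, MRPS10 and MRPS35 were named after their values were seen. The lists were those of non-MRP subunits, translation factors, assembly, mitochondrial transcription, mitochondrially encoded genes, transcription factors, proliferation, stromal and plasma cell markers. Alternatives were a pseudocount of 0.1, no filter, median-of-ratios scaling, quantile normalization, a replicate block, voom, a loess correction for GC content and length, members without a pseudogene, each library left out and, chosen after seeing the data, both TSW libraries left out in RPMI8226 CO vs MONO. Promoters are those of RefSeq.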

Additional observations from a re-analysis of the deposited data

Results flagged for a closer look

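A few members, about as many in proportion as among all genes, had values ordered in opposite ways in the lines, in that all libraries of a coculture condition lay above all MONO libraries in MM.1S and below all of them in RPMI8226. In TSW vs MONO these were MRPL19 (log2 fold change 0.42 in MM.1S and -0.41 in RPMI8226), MRPS30 (0.30 and -0.37), MRPL42 (0.27 and -0.69), MRPS35 (0.15 and -0.59), MRPL3 (0.13 and -1.28) and MRPS31 (0.07 and -0.54). In CO vs MONO they were MRPL19 (0.53 and -0.34), MRPS10 (0.26 and -0.27), MRPL42 (0.25 and -0.58) and MRPL3 (0.16 and -1.33). In MM.1S MRPS35, MRPL3, MRPS31 and MRPS10 did not pass the test of limma, with adjusted p between 0.113 and 0.591, and in RPMI8226 all of them did. After correction for GC content and length, MRPL19 (0.16) and MRPS30 no longer passed in MM.1S TSW vs MONO, nor MRPL19 (0.18) and MRPL42 (0.10) in MM.1S CO vs MONO. Members with this order were 6 of 75 in TSW and 4 of 75 in CO, against 5.57% and 5.38% of the 9397 genes tested in both lines. The difference between the lines was not tested for any of these members, and for those that did not pass in MM.1S no direction is read there. MRPL3, MRPL42, MRPS10, MRPS31 and MRPS35 have a RefSeq pseudogene.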

How the results depend on the processing

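No median, and no fold change of a named member in a comparison where it passed, changed sign under any alternative, but which of the counts was larger did change in MM.1S TSW vs MONO; 1359 single values kept their side of the threshold and 148 lost it. In MM.1S TSW vs MONO 4 members rose and 5 fell: without a filter 3 fell, with the replicate block 2 rose and 2 fell, after GC and length correction 8 rose and 13 fell, and among the 35 members without a pseudogene 3 rose and 2 fell. There rises outnumbered falls without a filter (4 and 3), among members without a pseudogene, and without replicate 1 of MONO (11 and 4), 2 of CO (4 and 3) or 3 of CO (3 and 2). In MM.1S CO vs MONO 3 rose and 12 fell, 4 past 1.5-fold: quantile normalization gave 5 rises and 1 past it, the correction 1 past it, and members without a pseudogene 5 and 2. In RPMI8226 members without a pseudogene, fewer by construction, gave 1 rise, 31 falls and 14 past 1.5-fold for TSW against MONO, 32 and 25 for CO against MONO and 24 falls for CO against TSW. The RPMI8226 median in TSW vs MONO (-0.45) was -0.37 with median-of-ratios scaling, -0.39 with quantile normalization and -0.39 after the correction. In CO vs MONO (-0.77) it was -0.83 with a pseudocount of 0.1, -0.68 with median-of-ratios, -0.69 with quantile normalization, -0.83 with voom and -0.66 after the correction, which also gave 3 rises. In CO vs TSW 1 rise became 0 without a filter and 2 with quantile normalization, the replicate block or the correction, 8 falls past 1.5-fold became 5 with quantile normalization and 2 after the correction, and the median (-0.33) became -0.24 and -0.21. There, quantile normalization called 1393 of all genes higher and 1437 lower, against 1045 and 1804. The cause of these shifts was not tested. The labels do not say that equal replicate numbers pair libraries, and in the pairing check r of their deviations ran from -0.38 to 0.286 (MM.1S) and from 0.164 to 0.271 (RPMI8226). The replicate block gave 65, 72 and 53 falls in RPMI8226 for TSW and CO against MONO and for CO against TSW. Of all genes 40.4%, 43.4% and 21.9% fell with it, against 38%, 41.7% and 17.5% without it. In MM.1S TSW vs MONO 13.8% of all genes rose and 12% fell with the block. With each library left out, a lone sample being assumed to vary like the other conditions, MM.1S TSW vs MONO had 1 to 11 rises, 2 to 15 falls and a median of -0.17 to -0.01; CO vs MONO 1 to 6, 3 to 23, 0 to 6 past 1.5-fold and -0.28 to -0.09; CO vs TSW 0 and 0 and -0.15 to -0.05. RPMI8226 TSW vs MONO had 2 to 2 rises, 55 to 62 falls, 24 to 26 past 1.5-fold and -0.47 to -0.45; CO vs MONO 1 to 1, 66 to 70, 54 to 55 and -0.80 to -0.77; CO vs TSW 0 to 1, 22 to 50, 5 to 9 and -0.36 to -0.30. Low members such as MRPS24 and MRPL23, with at least 30 PETs, are limited by depth.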
